A study of Mus musculus with 19 samples.

Results

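The 5 mouse genes of the Lrrc8 family, Lrrc8a, Lrrc8b, Lrrc8c, Lrrc8d and Lrrc8e, were followed through muscle differentiation in culture. They were taken as a named family, and all 5 were found among the 35598 genes whose counts were summed and among the 15123 genes tested. The family was chosen by name, with the difference of Lrrc8c between the 2 genotype labels known from these libraries, so that measured value counts as used and every comparison of the subunits between the labels is given here as a description without a test. Other genes were tested between the labels, but the guanylate-binding protein genes beside the family were also known beforehand to differ. RNA came from primary myoblasts of mouse hind-limb muscle, which are the precursor cells that fuse into myotubes. WT (wild-type) cells were sampled as proliferating myoblasts in growth medium at 24 h (3 libraries), as differentiated myotubes at 48 h (3 libraries) and as fused myotubes at 72 h (4 libraries). Cells labelled Glud1KO, called KO-labelled here, were sampled at the same stages in 3, 2 and 4 libraries. The labels name no promoter, Cre driver or method of Glud1 deletion and no age of the mice, and they call the replicates biological without saying whether these were separate animals. Errors and tests therefore describe the spread between these libraries.

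LRRC8 proteins form the volume-regulated anion channel, which opens when a cell swells and lets chloride and small organic osmolytes such as taurine leave. LRRC8A is the obligatory subunit. It must assemble with at least 1 of LRRC8B, LRRC8C, LRRC8D or LRRC8E, and the partner sets what the channel carries: LRRC8D favours organic osmolytes and uncharged substrates, while LRRC8C and LRRC8E are known for passing cyclic dinucleotides. In muscle precursors the channel has been studied for its part in the membrane potential changes that precede fusion.

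Lrrc8b, Lrrc8c and Lrrc8d lie next to each other in the same orientation on chromosome 5 of GRCm38. Lrrc8b (ENSMUSG00000070639.5) spans 105415775 to 105490074, Lrrc8c (ENSMUSG00000054720.12) spans 105519388 to 105613018 and Lrrc8d (ENSMUSG00000046079.16) spans 105699969 to 105832436. The gaps between them are 29313 and 86950 bases. Lrrc8a (ENSMUSG00000007476.18) lies on chromosome 2 from 30237715 to 30263790, and Lrrc8e (ENSMUSG00000046589.7) on chromosome 8 from 4226827 to 4237470. All 5 are on the plus strand. The sequences before the starts of the chromosome 5 trio are shown because these neighbours separated from each other in the values below. They are from RefSeq promoter windows of GRCm38.p6, plus strand, 5′ to 3′, and stop before the first annotated base of the transcript. Capitals mark each GC box, GGGCGG on either strand.
Lrrc8b, chr5:105415525-105415774: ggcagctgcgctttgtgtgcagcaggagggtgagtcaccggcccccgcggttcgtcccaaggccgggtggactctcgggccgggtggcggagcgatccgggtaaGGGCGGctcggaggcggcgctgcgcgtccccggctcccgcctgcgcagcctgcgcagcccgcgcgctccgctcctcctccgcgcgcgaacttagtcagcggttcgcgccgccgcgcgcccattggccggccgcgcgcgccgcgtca
Lrrc8c, chr5:105519221-105519387: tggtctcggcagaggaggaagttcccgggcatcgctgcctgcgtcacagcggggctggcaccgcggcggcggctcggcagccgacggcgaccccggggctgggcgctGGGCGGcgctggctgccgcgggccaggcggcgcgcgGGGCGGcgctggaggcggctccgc
Lrrc8d, chr5:105700560-105700788: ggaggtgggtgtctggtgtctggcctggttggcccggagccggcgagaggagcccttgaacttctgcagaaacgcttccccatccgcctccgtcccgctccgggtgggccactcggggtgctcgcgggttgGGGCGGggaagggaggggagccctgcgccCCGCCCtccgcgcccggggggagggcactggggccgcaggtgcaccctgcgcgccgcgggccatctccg
The Lrrc8d sequence belongs to the start of ENSMUST00000120847, the transcript that held 86.4% of the Lrrc8d counts over all libraries. A second Lrrc8d window precedes the start at 105699969.

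All 5 subunits matched the RefSeq table, with 6 windows of 300 bases in all. Each of the 6 windows held a GC box, against 35.7% of the 32851 windows in the table. The GC content was 78.0% for Lrrc8b and for Lrrc8c, 70.3% for the Lrrc8d window shown, 70.0% for Lrrc8a and 60.0% for Lrrc8e, and the median of all windows was 52.7%. The E-box CANNTG, a letter pattern bound by many basic helix-loop-helix factors, was in every window but that of Lrrc8c and in 72.3% of all windows. CCAAT was found once in the Lrrc8b window and once in the other Lrrc8d window, against 37.4% of all windows. The cyclic AMP response element TGACGTCA stood once before Lrrc8a and in 1.79% of all windows. Both strands were searched, and no pattern contains another. These are letter matches in short windows and say nothing of binding.

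Library totals were 16168131 to 30742634 estimated counts, and the common biological coefficient of variation was 4.03% over the genes tested. Glud1, which encodes mitochondrial glutamate dehydrogenase, spanned 184 to 192 CPM (counts scaled to a common library size) in the WT myoblasts, while KO-labelled myoblasts spanned 185 to 190. The ranges were 102 to 112 and 96.6 to 103 in differentiated myotubes, and 131 to 141 and 130 to 139 in fused myotubes. The targeted gene's RNA thus did not show the label. The names under which the libraries were deposited carry a KO mark in both groups, with an added T in the KO-labelled group. KO-labelled therefore refers to the label alone. Of 10 myoblast and muscle markers, all had a mean of at least 1 TPM in both earlier stages, and 9 in fused myotubes, where Pax7 was the exception (0.664 to 1.04 in WT). Their summed TPM in myoblasts spanned 1380 to 1470 with the KO label, under the 1760 to 1950 of WT. The summed TPM of 8 fibroblast or fibro-adipogenic markers was 176 to 193 in WT myoblasts, 59.3 to 61.2 in differentiated and 43.4 to 48.3 in fused myotubes, and 149 to 175, 47.9 to 48.5 and 40 to 46.2 in KO-labelled libraries. Of these, 4 reached 1 TPM in WT myoblasts. The fibroblast markers were led in WT myoblasts by Col3a1 (136 to 155), Tcf4 (24.1 to 26.3) and Ly6a (10.5 to 12.3), with Lum at 0 in all WT libraries. They did not move one way: Col3a1 was at 9.54 to 12.1 TPM and Ly6a at up to 1.29 in WT differentiated myotubes, while Tcf4 was higher there than in myoblasts, at 46.9 to 48.4. Pdgfra was at 0.297 to 0.494 in WT myoblasts and 0.496 to 0.924 in WT fused myotubes. The 7 immune markers summed to 1.55 to 8.74, and Adgre1 and Cd3e were at 0 in all WT myoblast libraries. The 5 endothelial markers stayed at or below 0.76, the 4 adipocyte markers at or below 0.172 and the 4 Schwann markers at or below 1.78. Of the 4 smooth muscle and pericyte markers, Des is also a muscle gene and made up most of their sum, which ran from 342 to 2550. The pericyte marker Rgs5 spanned 17.4 to 18.8 TPM in the WT myoblasts, against 14.1 to 15.6 in those with the KO label, and at 0.0729 to 0.164 and 0.0818 to 0.0966 in differentiated myotubes. Col3a1, Ly6a and Rgs5 were thus high in myoblasts and low in myotubes, as Lrrc8 RNA was. So was the myoblast marker Pax7, at 25.0 to 28.2 TPM in WT myoblasts and 2.14 to 2.90 in WT differentiated myotubes. In the list of Rgs5, Myh11 was higher in WT differentiated myotubes (0.125 to 0.182) than in WT myoblasts (0.0102 to 0.0402). Cspg4 overlapped between these stages (0.151 to 0.232 and 0.183 to 0.254). The part of other cells in the Lrrc8 levels was not tested. In bulk RNA, fewer cells of a type and less RNA per cell cannot be told apart.

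WT myoblasts carried all 5 subunits, led by Lrrc8b, and myotubes carried mostly Lrrc8d, Lrrc8a and Lrrc8b. Levels of different genes are compared in TPM, which is scaled for transcript length and library size. The 5 subunits summed to 56.0 ± 2.15 TPM (SD, n = 3) in WT myoblasts, 15.8 ± 0.584 (n = 3) in differentiated myotubes and 10.8 ± 0.418 (n = 4) in fused myotubes. In KO-labelled libraries the sums were 43.1 ± 1.09 (n = 3), 11.1 ± 0.529 (n = 2) and 7.93 ± 0.459 (n = 4). The KO-labelled sums lay below the WT sums at each stage with no overlap between libraries.

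**Figure D1:**
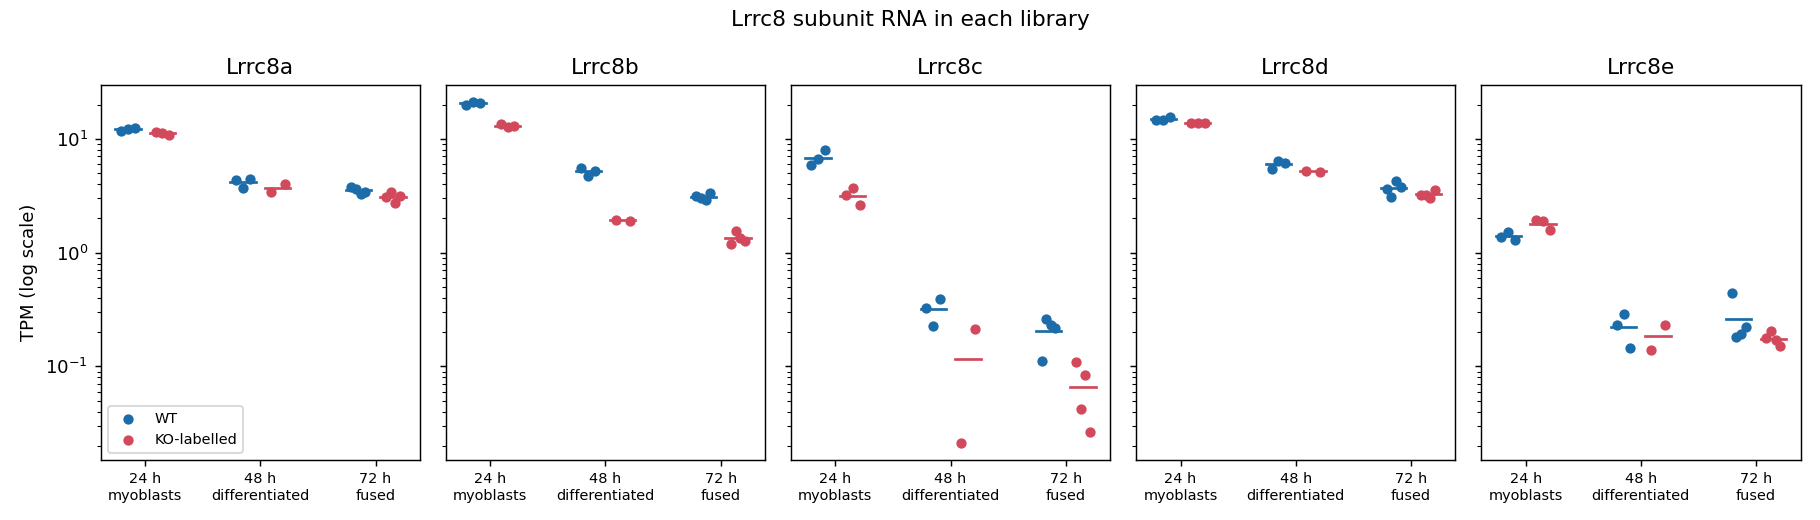
TPM of each Lrrc8 subunit (log axis) in each of the 19 libraries by stage. Points are libraries, bars are group means, WT in blue and KO-labelled in red. Every subunit was lower in both myotube stages than in myoblasts, and Lrrc8b and Lrrc8c show the widest gaps between the labels.

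Lrrc8a, the obligatory subunit, was at 11.8, 12.1 and 12.4 TPM in WT myoblasts. It was at 4.33, 3.68 and 4.42 TPM in WT differentiated myotubes and at 3.79, 3.64, 3.26 and 3.40 TPM in WT fused myotubes. The later 2 stages overlapped with each other, and both lay far under the myoblasts. KO-labelled libraries held 11.6, 11.2 and 10.9 TPM of Lrrc8a as myoblasts, 3.41 and 3.98 as differentiated and 3.11, 3.42, 2.74 and 3.17 as fused myotubes. These values overlapped those of WT in both myotube stages.

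Lrrc8b was the highest subunit of WT myoblasts at 20, 21.1 and 20.8 TPM. It was at 5.55, 4.72 and 5.27 TPM in WT differentiated and at 3.14, 2.99, 2.89 and 3.31 TPM in WT fused myotubes. Each stage was lower than the one before without overlap. In KO-labelled libraries Lrrc8b was at 13.5, 12.6 and 13.1 TPM in myoblasts, 1.95 and 1.91 in differentiated and 1.18, 1.56, 1.35 and 1.26 in fused myotubes. The highest KO-labelled library was below the lowest WT library at each stage.

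Lrrc8c was at 5.91, 6.66 and 7.91 TPM in WT myoblasts and at 0.329, 0.227 and 0.394 TPM in WT differentiated myotubes. In WT fused myotubes it was at 0.112, 0.263, 0.230 and 0.217 TPM. It was thus a mid-level myoblast gene that was scarce in myotubes. KO-labelled myoblasts held 3.19, 3.69 and 2.61 TPM, and KO-labelled fused myotubes 0.109, 0.0420, 0.0843 and 0.0265. The 2 KO-labelled differentiated libraries were at 0.0213 and 0.212 TPM from 2 and 3 counts, and in the second of these most of the TPM came from 1.9 estimated counts on a transcript of 702 nucleotides (ENSMUST00000153754). TPM of so few counts depends on which transcript receives them, so the place of Lrrc8c in the order and mix of the subunits in myotubes is uncertain, and counts are used below to compare its level between the labels.

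Lrrc8d was at 14.7, 14.7 and 15.7 TPM in WT myoblasts, 5.41, 6.34 and 6.19 in differentiated and 3.63, 3.07, 4.28 and 3.75 in fused myotubes. KO-labelled libraries were at 13.8, 13.9 and 13.7, then 5.19 and 5.14, then 3.19, 3.18, 3.03 and 3.58 TPM. Lrrc8d stepped down at each stage in both labels and had the highest mean TPM of the family in both myotube stages when all transcripts were summed. Lrrc8e was the lowest subunit of both sets of myoblasts, with 1.37, 1.51 and 1.29 TPM in WT and 1.93, 1.88 and 1.59 TPM in KO-labelled libraries. In myotubes it lay between 0.140 and 0.442 TPM over all 13 libraries, from 7 to 19 estimated counts each.

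The order of mean TPM in WT myoblasts was Lrrc8b, Lrrc8d, Lrrc8a, Lrrc8c and Lrrc8e, and no neighbours in that order overlapped. In WT differentiated myotubes it was Lrrc8d (5.98), Lrrc8b (5.18), Lrrc8a (4.14), Lrrc8c (0.317) and Lrrc8e (0.222), with overlap between the first pair and between the last pair. In WT fused myotubes the leading 3, Lrrc8d (3.68), Lrrc8a (3.52) and Lrrc8b (3.08), overlapped in turn, as did Lrrc8e (0.259) and Lrrc8c (0.206). Among KO-labelled libraries Lrrc8d led at every stage. With protein-coding transcripts alone the order of these 2 turned in fused myotubes of both labels, where Lrrc8a led Lrrc8d (41.0% against 38.2% of the summed TPM in KO-labelled libraries). Lrrc8b came next in KO-labelled myoblasts and after Lrrc8a in both KO-labelled myotube stages, and only Lrrc8d and Lrrc8a overlapped in the fused stage and only Lrrc8e and Lrrc8c in the differentiated one, where Lrrc8c had 2 and 3 counts. Set against all genes tested, 62.5% had a lower mean TPM than Lrrc8b in WT myoblasts and 36.7% in WT fused myotubes. For Lrrc8c these shares were 41.7% and 10.5%.

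Lrrc8a had a higher mean share of the family RNA at each later stage. This share of the summed TPM was 21.6% ± 0.301 (SD, n = 3) in WT myoblasts, 26.1% ± 1.74 (n = 3) in differentiated and 32.8% ± 2.68 (n = 4) in fused myotubes. The Lrrc8b share was 36.9% ± 1.01, 32.7% ± 2.08 and 28.7% ± 1.61 at the same stages. The Lrrc8d share was 26.9% ± 0.580, 37.8% ± 3.71 and 34.2% ± 3.88. Lrrc8c held 12.2% ± 1.34 of the myoblast RNA and 1.99% ± 0.464 and 1.93% ± 0.663 of the myotube RNA, and Lrrc8e held 2.48% ± 0.248, 1.41% ± 0.500 and 2.39% ± 1.06. The 15 exact two-sided permutation tests of these WT shares between stages cannot pass the threshold, since the smallest p is 0.1 with 3 libraries against 3 and 0.0571 with 3 against 4. After Benjamini-Hochberg adjustment over the 15 tests the lowest value was 0.136.

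**Figure D2:**
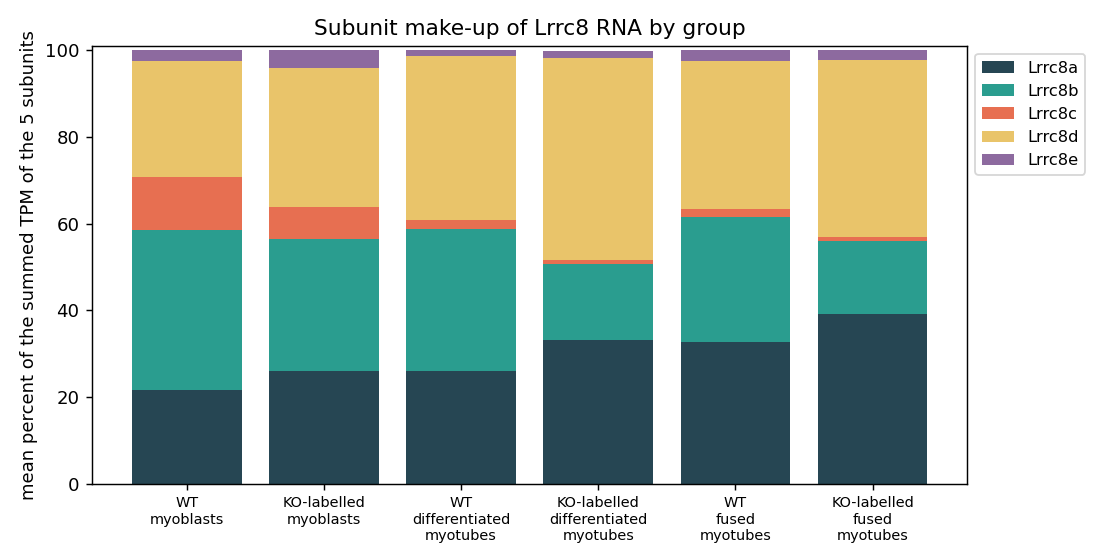
Mean share of each subunit in the summed TPM of the 5 subunits (percent, stacked) for the 6 groups. From WT myoblasts to WT fused myotubes the Lrrc8a share went from 21.6% to 32.8% and the Lrrc8c share from 12.2% to 1.93%, and the Lrrc8b share was smaller in each KO-labelled group than in the WT group beside it.

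In KO-labelled libraries the Lrrc8a share was 26.1% ± 0.272 (SD, n = 3), 33.2% ± 2.02 (n = 2) and 39.1% ± 1.55 (n = 4) by stage, and the Lrrc8d share was 32.0% ± 0.735, 46.6% ± 2.57 and 40.9% ± 2.40. The Lrrc8b share was 30.4% ± 1.11, 17.4% ± 1.11 and 16.9% ± 1.80. Lrrc8c held 7.33% ± 1.16 in myoblasts and 0.844% ± 0.515 in fused myotubes. Its share was 0.198% and 1.85% in the 2 differentiated libraries, the second of which rests on the short transcript described above. Lrrc8e held 4.18% ± 0.334, 1.67% ± 0.508 and 2.21% ± 0.264. The ratio of Lrrc8b to Lrrc8d TPM was 1.37 ± 0.0592, 0.873 ± 0.141 and 0.849 ± 0.125 in WT and 0.949 ± 0.0389, 0.374 ± 0.00324 and 0.414 ± 0.0644 in KO-labelled libraries. At each stage the ranges of this ratio did not overlap between the labels.

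From WT myoblasts to WT differentiated myotubes, all 5 subunits fell, each by more than 2-fold. This change between stages was not the contrast known when the family was chosen, and it was tested with edgeR's quasi-likelihood test, adjusted by Benjamini-Hochberg over all genes tested and called under 0.05. Of all genes tested, 42.6% were called lower in this comparison and 22.1% were called lower by at least 2-fold. Lrrc8c fell by 4.10 ± 0.14 (SE) on the log2 scale, from a mean of 24.5 to 1.41 CPM, a 17.2-fold drop (edgeR adjusted p = 1.21e-20). Lrrc8e fell by 2.52 ± 0.20, Lrrc8b by 1.86 ± 0.058, Lrrc8a by 1.40 ± 0.073 and Lrrc8d by 1.08 ± 0.069. The largest of these adjusted p-values was 2.92e-12, for Lrrc8e. The WT values of Lrrc8c are also part of its known difference between the labels, so its changes in WT are not independent of the choice, and the other 4 subunits fell as well. The median change was -1.86 over the 5 subunits and 0.019 over all genes tested.

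The second step, from WT differentiated to WT fused myotubes, had a smaller estimate for each subunit. Lrrc8b, Lrrc8c and Lrrc8d fell, 3 of 5, where 37.7% of all genes tested were called lower. Lrrc8c is not independent of the choice of the family at this step either, so it adds no independent count or test. Lrrc8d fell by 0.81 ± 0.080 (SE) on the log2 scale and Lrrc8b by 0.61 ± 0.067, with adjusted p of 7.63e-10 and 5.23e-09 by edgeR, and neither overlapped between the stages. Lrrc8c fell by 0.72 ± 0.24 (edgeR adjusted p = 0.0078) with overlapping libraries, and the call ended without WT differentiated replicate 3 (-0.57, adjusted p = 0.0671) and with an effective-length offset (-0.58, adjusted p = 0.135). The Lrrc8a change was -0.13 ± 0.081 (adjusted p = 0.16) and that of Lrrc8e was 0.12 ± 0.26 (adjusted p = 0.701).

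The Lrrc8a value at this step depends on a gene that shares its exons. Gm28035 lies on chromosome 2 from 30240567 to 30282148 on the same strand, and 2825 of the 4301 different stretches of 31 bases in Lrrc8a transcripts also occur in it. It received 25.1 to 63.3 estimated counts in WT differentiated myotubes, which was 7.91% to 19% of the Lrrc8a and Gm28035 counts together, and 0 to 6.35 counts in WT fused myotubes. In KO-labelled libraries the share was 8.94% to 9.01% in differentiated myotubes, and the fused myotubes had no Gm28035 count. With Gm28035 added to Lrrc8a, an alternative chosen after seeing the data, Lrrc8a fell by 0.30 from WT differentiated to WT fused myotubes (edgeR adjusted p = 0.000648). Scaling by library size alone (-0.19, adjusted p = 0.0297) and leaving out WT differentiated replicate 2 (-0.21, adjusted p = 0.0286) also brought the call. How the reads of the shared exons divide between both genes was not tested. No stretch of 31 bases was shared between any 2 subunits, and 0% of those of Lrrc8b, 0.184% of Lrrc8c, 5.73% of Lrrc8d and 2.44% of Lrrc8e occurred in any other gene.

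Over both steps, from WT myoblasts to WT fused myotubes, all 5 subunits fell, where 43.4% of all genes tested were called lower. The limit given above for Lrrc8c holds here too. The log2 changes were -4.83 ± 0.14 (SE) for Lrrc8c, -2.48 ± 0.058 for Lrrc8b, -2.40 ± 0.18 for Lrrc8e, -1.89 ± 0.072 for Lrrc8d and -1.53 ± 0.070 for Lrrc8a. Lrrc8c was 28.4-fold lower and Lrrc8a 2.88-fold lower. The obligatory subunit had the smallest fall of the family over the whole course.

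**Figure D3:**
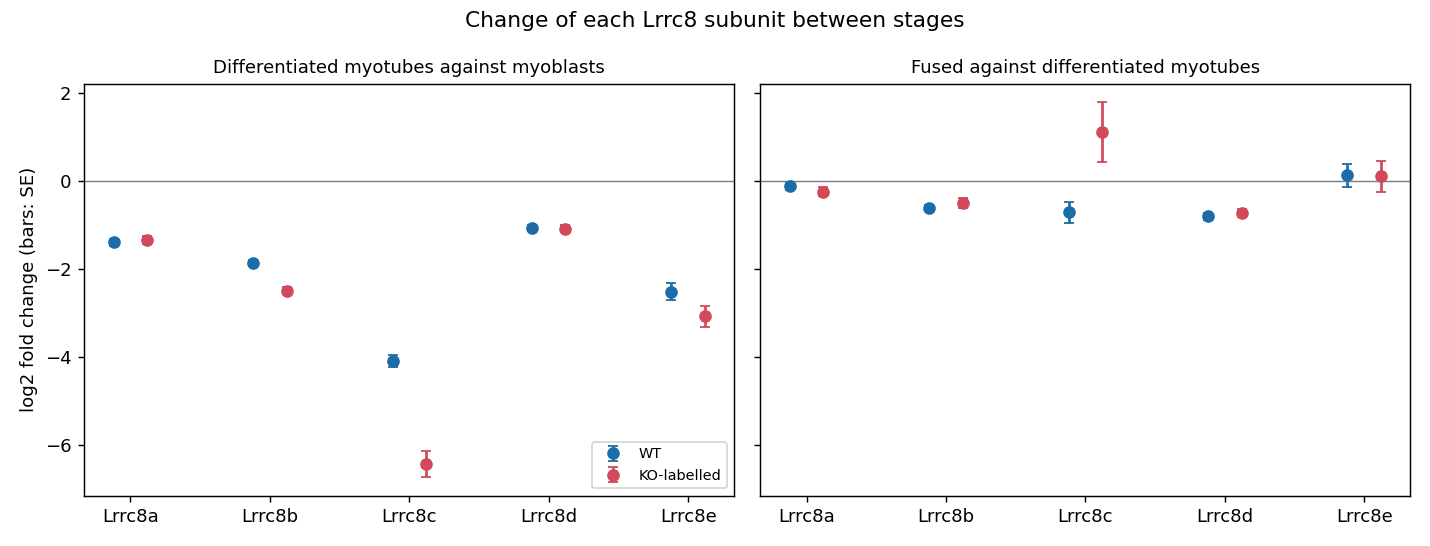
Log2 fold change of each subunit between stages (points) with its SE (bars), WT in blue and KO-labelled in red. All points of the first step lie under -1, and those of the second step lie between -0.81 and 1.10.

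In the KO-labelled libraries, Lrrc8a, Lrrc8b, Lrrc8d and Lrrc8e all fell from myoblasts to differentiated myotubes, 4 of the 4 tested, where 42.5% of all genes tested were called lower. Their log2 changes were -1.34 ± 0.087 (SE), -2.50 ± 0.083, -1.09 ± 0.084 and -3.08 ± 0.24, with edgeR adjusted p of at most 4.13e-12. Lrrc8c, which was not tested in these libraries, went from 12.6, 12.6 and 10.6 CPM to 0.107 and 0.157 CPM. From differentiated to fused myotubes 3 of the 4 were called lower, against 34.4% of all genes tested. Lrrc8d fell by 0.73 ± 0.097 and Lrrc8b by 0.50 ± 0.11 (edgeR adjusted p = 2.12e-07 and 0.000201). Lrrc8a fell by 0.25 ± 0.098 (adjusted p = 0.0245) with overlapping libraries. Without KO-labelled differentiated replicate 2, which left a single library there, the estimate was -0.12. This call ended without KO-labelled fused replicate 3 (-0.18, adjusted p = 0.107) and with the offset (-0.24, adjusted p = 0.0578). A replicate block ended it as well (-0.23, adjusted p = 0.0573). The Lrrc8e change was 0.10 ± 0.35 (adjusted p = 0.835). Over the whole course all 4 fell, with log2 changes of -1.59 ± 0.072 for Lrrc8a, -3.00 ± 0.069 for Lrrc8b, -1.82 ± 0.073 for Lrrc8d and -2.98 ± 0.19 for Lrrc8e, where 44.5% of all genes tested were called lower. Whether these changes differed from those in WT was not tested.

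Between the labels, Lrrc8b and Lrrc8c had the largest differences and were lower in KO-labelled libraries on average at every stage. The KO-labelled and WT CPM values did not overlap for 4 of 5 subunits in myoblasts, 2 of 5 in differentiated and 1 of 5 in fused myotubes. The share of all genes tested whose groups did not overlap was 33.0%, 46.5% and 15.8%. Since the difference of 1 member was known when the family was chosen, nothing is read from these counts.

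Lrrc8b was at 79.6, 81.3 and 81.4 CPM in WT and 53.9, 49.8 and 51 CPM in KO-labelled myoblasts. Differentiated myotubes held 23.7, 20.2 and 22.7 CPM with the WT label and 9.09 and 9.17 CPM with the KO label, and Lrrc8b stood at 14.2, 14.1, 13.9 and 15.6 against 5.65, 7.62, 6.52 and 5.86 CPM in fused myotubes. The labels were apart at each stage. The log2 difference, KO-labelled minus WT, was -0.65 ± 0.051 (SE) in myoblasts, -1.28 ± 0.091 in differentiated and -1.17 ± 0.082 in fused myotubes, so that Lrrc8b was 1.57-fold, 2.43-fold and 2.25-fold lower.

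Lrrc8c was at 24.1, 25.0 and 24.3 CPM in WT and 12.6, 12.6 and 10.6 CPM in KO-labelled myoblasts, a log2 difference of -1.04 ± 0.093 (SE). In differentiated myotubes the estimated counts were 32, 24 and 47.1 in WT and 2 and 3 in KO-labelled libraries. Over the group, 103 counts against 5 gave a level 10.7-fold lower at equal depth. The exact 95% counting interval of this ratio, 4.46 to 33.8, describes its precision for counting error only and is no test. With an effective-length offset the fitted log2 difference was -2.60, against -3.37 without it. In fused myotubes the counts were 12, 13, 15 and 27 against 9, 4, 6 and 2, or 67 against 21, which was 2.96-fold lower (counting interval 1.79 to 5.08). The CPM values of the fused libraries overlapped, since KO-labelled replicate 1 at 0.565 CPM lay above WT replicate 1 at 0.548 CPM. Markers also differed between the labels, in both directions. In myoblasts Ly6a was at 6.22 to 6.53 TPM in KO-labelled libraries against 10.5 to 12.3 in WT, and Cd34 at 0.687 to 0.745 against 1.13 to 1.30, without overlap, while Col3a1 (122 to 146 against 136 to 155) and Pdgfra (0.376 to 0.821 against 0.297 to 0.494) overlapped. The muscle genes Myog, at 66.1 to 87.4 against 110 to 125, and Myh3, at 33.6 to 36.9 against 65.8 to 71.4, were lower in KO-labelled myoblasts too, beside the differences of Lrrc8b and Lrrc8c there. In differentiated myotubes Ly6a was at most 0.0763 TPM in KO-labelled and up to 1.29 in WT libraries, Col3a1 was at 5.16 to 6.70 against 9.54 to 12.1 and the myoblast marker Pax7 at 1.15 to 1.20 against 2.14 to 2.90, each without overlap. The muscle genes Myod1 (417 to 419 against 539 to 608) and Myf5 (44.4 to 46.1 against 52.8 to 61.3) were lower there too. So were Myog (2070 to 2230 against 2280 to 2460) and Ttn (168 to 197 against 208 to 216), all without overlap. Mymk was higher without overlap (1780 to 1940 against 1610 to 1770), and Des, Myh3, Ckm and Acta1 overlapped. Itgam, at 6.60 to 7.90 against 4.71 to 5.49, and Myh11, at 0.245 to 0.390 against 0.125 to 0.182, were higher in KO-labelled differentiated myotubes without overlap, and Rgs5 and Cd34 (0.326 to 0.406 against 0.171 to 0.337) overlapped. Tcf4 was lower in KO-labelled differentiated myotubes (41.0 to 42.1 against 46.9 to 48.4) and myoblasts (19.4 to 20.6 against 24.1 to 26.3). In fused myotubes Myf5 (79.3 to 82.6 against 95.9 to 106) and Des (2350 to 2450 against 2480 to 2540) were lower without overlap. Myod1, Myog and Mymk overlapped there. By stage, 33.0%, 46.5% and 15.8% of all genes tested had CPM values that did not overlap between the labels. Aqp1, a water channel, and Gja1, a gap junction gene, were also lower in KO-labelled differentiated myotubes, at means of 0.216 against 2.06 TPM and 0.333 against 1.97 TPM. The part of these in the Lrrc8b and Lrrc8c differences was not tested.

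The Lrrc8a difference between the labels was -0.09 ± 0.063 (SE) in myoblasts, -0.03 ± 0.097 in differentiated and -0.15 ± 0.082 in fused myotubes on the log2 scale. Lrrc8d differed by -0.13 ± 0.062, -0.14 ± 0.091 and -0.06 ± 0.088. In myoblasts the Lrrc8d groups did not overlap, at 32.6 to 35.8 CPM in WT and 30.9 to 32.1 in KO-labelled libraries, although the difference was small. Lrrc8e was higher in KO-labelled myoblasts, at 4.41, 4.97 and 4.12 CPM against 3.59, 3.89 and 3.38 in WT, a difference of 0.32 ± 0.14. In the myotube stages it differed by -0.23 ± 0.34 and -0.26 ± 0.27 with overlapping libraries.

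Along chromosome 5, Lrrc8b and Lrrc8c lie between genes with large differences between the labels on one side and Lrrc8d on the other. The genes before Lrrc8b are guanylate-binding protein genes (Gbp), which encode interferon-inducible GTPases of cell defence. Gbp6, the nearest tested protein-coding gene before Lrrc8b with a gap of 122076 bases by its end, was 49.7 ± 2.14 CPM (SD, n = 3) in WT and 6.50 ± 1.14 (n = 3) in KO-labelled myoblasts, and its log2 difference was -2.94 ± 0.079 (SE) there, -2.72 ± 0.072 in differentiated and -4.32 ± 0.054 in fused myotubes. Zfp326, a zinc finger gene that follows Lrrc8d after 44128 bases, differed by -0.07 ± 0.059, -0.09 ± 0.083 and -0.07 ± 0.069 (edgeR adjusted p = 0.529, 0.448 and 0.58). In myoblasts the order Gbp6, Lrrc8b, Lrrc8c, Lrrc8d and Zfp326 thus ran through differences of -2.94, -0.65, -1.04, -0.13 and -0.07. In differentiated myotubes it ran through -2.72, -1.28, -3.37, -0.14 and -0.09, with Lrrc8c resting on 2 and 3 counts in KO-labelled libraries. In fused myotubes the values were -4.32, -1.17, -1.55, -0.06 and -0.07. The differences of Gbp6 and Lrrc8c were known beforehand.

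**Figure D4:**
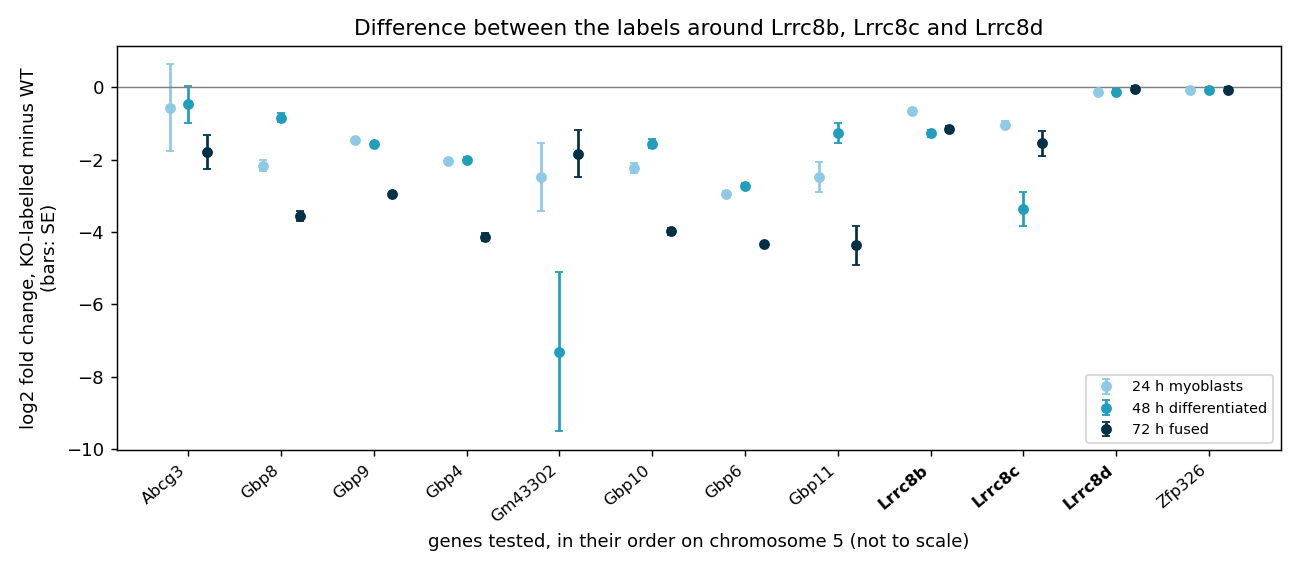
Log2 difference between the labels (points, KO-labelled minus WT) with its SE (bars) at each stage, for the tested genes within 500 kb of the chromosome 5 trio and the trio itself, in chromosome order and not to scale. The Gbp genes, Lrrc8b and Lrrc8c lie under 0 at every stage, and Lrrc8d and Zfp326 lie between -0.14 and -0.06.

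Of 28 other genes annotated within 500 kb of the trio, 9 were tested. None was called higher in KO-labelled libraries and 6, 7 and 7 were called lower by stage, where 6.69%, 14.1% and 6.72% of all genes tested were called lower. Of these 9, 6 are Gbp genes, all called lower at every stage. The Gbp genes were known beforehand to differ between the labels. Their calls, and the counts over all 9, are therefore a description and no test. Apart from them, 0, 1 and 1 of 3 were called lower. The called ones were Gm43302 in differentiated myotubes (0.0262 against 4.93 CPM, edgeR adjusted p = 0.0108), which overlaps Gbp genes, and Abcg3 in fused myotubes (0.165 against 0.626 CPM, adjusted p = 0.0106), both named after their values were seen. Gbp paralogs are close in sequence and can exchange counts. On the other chromosomes, the genes beside Lrrc8a are Kyat1 and Phyhd1, and those beside Lrrc8e are Prr36 and Map2k7. None of the 4 was called in myoblasts or differentiated myotubes, with edgeR adjusted p from 0.057 to 0.93, and in fused myotubes Phyhd1 was called lower (-1.45 ± 0.48, adjusted p = 0.0431) at 0.152 against 0.433 CPM.

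Each subunit was read mostly from 1 annotated transcript. Lrrc8b has a single one. ENSMUST00000067924 held 98.3% of Lrrc8c counts, ENSMUST00000053035 held 99.7% of Lrrc8e counts and ENSMUST00000095078 held 85.0% of Lrrc8a counts over all libraries. The share of that Lrrc8a transcript in the gene's TPM was 81.2% to 96.3% in WT myoblasts and 43.6% to 100% in WT fused myotubes, a wide spread between replicates of the last stage. Lrrc8d has 10 annotated transcripts. ENSMUST00000120847, which starts at the Lrrc8d window printed above, held 66.3% to 97.1% of Lrrc8d TPM in the WT myoblast and fused libraries and 68.3% to 86.6% in the differentiated ones. ENSMUST00000060531, from the earlier start, held 7.73% to 27.5% in WT differentiated myotubes, 0% to 10.3% in WT myoblasts and 0% in all 4 WT fused libraries. Antisense transcripts to Lrrc8a (1700084E18Rik) and Lrrc8d (Lrrc8dos) had at most 9.0 counts and none, and without stated strand use their reads cannot be told apart from those of the sense gene.

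The other genes of cell volume control were taken as 7 lists of 64 genes, of which 52 were tested. In 6 of the lists called genes lay in both directions at the first WT step. In the list of purine and cyclic dinucleotide partners, 4 of 4 tested genes fell from WT myoblasts to WT differentiated myotubes (median -2.70), where 42.6% of all genes tested were called lower and 42.4% higher. Its members Gja1, a gap junction protein, and Panx1, an ATP release channel, fell by 6.55 ± 0.076 (SE) and 0.64 ± 0.066 on the log2 scale. From differentiated to fused WT myotubes 2 rose and 1 fell, or 2 and 0 with an effective-length offset, where 37.4% of all genes tested were called higher and 37.7% lower. These shares are the background for the counts of the other lists at the same steps. Panx1 rose by 0.43 ± 0.065 and Gja1 fell by 0.43 ± 0.16.

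Of 17 other anion channels tested, 7 rose and 6 fell at the first WT step (6 and 10 with library size scaling), and 8 rose and 7 fell at the second, against 42.4% and 42.6% of all genes called higher and lower at the first and 37.4% and 37.7% at the second. Ano5, an anoctamin linked to membrane repair in muscle, had the highest mean TPM of the list over all libraries, at 10 ± 0.512 TPM in WT myoblasts and 130 ± 6.84 in differentiated myotubes (SD, n = 3 each), and rose by 3.94 ± 0.050 (SE) and then 0.48 ± 0.039 on the log2 scale. Clcn5, a chloride-proton exchanger of endosomes, was higher than Ano5 in WT myoblasts, at 86.1 ± 5.26 TPM. It changed by 0.07 ± 0.048 (edgeR adjusted p = 0.158, with a change of sign or call under 2 other scalings) and then fell by 1.48 ± 0.047. Of 6 cation-chloride cotransporters, 2 rose and 3 fell, and then 3 rose and 2 fell (3 and 1 by DESeq2). Slc12a2, the sodium-potassium-chloride cotransporter that loads cells with chloride, rose by 1.65 ± 0.045 from 10.9 to 30.9 TPM, while Slc12a4, a potassium-chloride exporter, fell by 0.57 ± 0.044. At the second step Slc12a4 TPM was lower (23.6 against 27.4) while its fitted change was 0.18 ± 0.043, and 1 other scaling gave the opposite sign.

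Of 7 volume-sensing kinases tested, 2 rose and 1 fell at the first WT step (2 and 2 with library size scaling) and 2 rose and 5 fell at the second. The shares of all genes called higher and lower were 42.4% and 42.6% at the first and 37.4% and 37.7% at the second. Wnk1, a chloride-sensing kinase, rose by 0.89 ± 0.060 (SE) and then fell by 0.44 ± 0.055, and its substrate kinase Oxsr1 rose by 0.64 ± 0.040 and fell by 0.11 ± 0.038. Among 9 genes of organic osmolytes and tonicity, 6 rose and 3 fell, and then 2 rose and 5 fell (1 and 6 with library size scaling). Slc6a6, the taurine transporter, went from 121 ± 2.92 TPM to 349 ± 29.8 (SD, n = 3 each) and then to 145 ± 5.60 (n = 4), a rise of 1.59 ± 0.051 and a fall of 1.08 ± 0.046. Akr1b3, the aldose reductase that makes sorbitol, rose by 1.38 ± 0.040 and fell by 0.62 ± 0.037. Both peaked at 48 h, when Lrrc8 RNA had already dropped.

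Of 6 genes of sodium, proton and bicarbonate exchange, 5 rose and 1 fell at the first WT step (2 and 1 with library size scaling) and 2 rose and 3 fell at the second, against the same 42.4% and 42.6%, then 37.4% and 37.7%, of all genes. The anion exchangers Slc4a3 and Slc4a2 rose by 3.96 ± 0.081 (SE) and 0.28 ± 0.041, the latter not called under 1 other scaling. Of 3 water channels tested, 1 rose and 2 fell, and then 1 rose and 1 fell. Aqp1, the common water channel, fell by 4.09 ± 0.084 from 39.0 to 2.06 TPM and Aqp11 rose by 1.24 ± 0.23.

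Between the labels, called genes in these lists were mostly lower in KO-labelled libraries. Of all genes tested, 11.6%, 25.2% and 13.0% were called by stage, and 6.69%, 14.1% and 6.72% were called lower. With an effective-length offset, 587, 2146 and 821 genes were called in place of 1747, 3810 and 1972, and without WT replicate 3 the count in myoblasts was 925. Of the 17 anion channels, 5 were lower and none higher in myoblasts (3 lower with an effective-length offset and by DESeq2). In differentiated myotubes 4 were lower (3 by DESeq2 and 6 with library size scaling). In fused myotubes 2 were higher and 1 lower, or 1 and 1 with the offset and 2 and 2 with library size scaling. Of the 6 cotransporters, 1, 3 and 1 were lower by stage, or 0, 1 and 0 with the offset. Of the 9 osmolyte genes, 2 were lower in myoblasts, 1 was higher and 2 lower in differentiated myotubes, and 1 was lower in fused myotubes (1 lower, 1 in each direction and 1 lower with the offset). The 6 exchangers had no call in myoblasts (1 lower with DESeq2 size factors), 1 in each direction in differentiated myotubes (0 higher and 1 lower with the offset or library size scaling) and 2 lower in fused myotubes (1 with the offset). Of the 3 water channels, 1 was lower in each of the first 2 stages, and of the 4 purine and cyclic dinucleotide partners 1 was higher in myoblasts and 1 lower in each myotube stage, of which the offset left only the call in differentiated myotubes. None of the 7 volume-sensing kinases was called in the first 2 stages (1 lower in differentiated myotubes with library size scaling), and 1 was higher in fused myotubes, or 0 with the offset. Slc6a6 was lower in KO-labelled libraries by 0.26 ± 0.050 (SE) in myoblasts and 0.32 ± 0.056 in differentiated myotubes (edgeR adjusted p = 0.000701 and 0.000102), and in fused myotubes the adjusted p was 0.986. Akr1b3 was higher in KO-labelled differentiated myotubes by 0.45 ± 0.043 (edgeR adjusted p = 1.02e-08), with differences of 0.05 ± 0.040 in myoblasts and -0.01 ± 0.035 in fused myotubes that were not called.

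The subunits were also compared by pattern across all 19 libraries, with the root mean square difference of log2 CPM after centring each gene on its mean. Among 11777 protein-coding genes, those most like Lrrc8a were Sdcbp (0.109), Ddx21 (0.116) and Nrn1 (0.120), and those most like Lrrc8d were Ldah (0.0962), D10Wsu102e (0.103) and Hnrnpm (0.110). Lrrc8e was nearest to Dek (0.195), Haus6 (0.222) and Kpna2 (0.224). Lrrc8b was nearest to Cd80 (0.336), Rrbp1 (0.355) and Lef1 (0.376), and Lrrc8c to Ly6a (0.659), Cdh6 (0.679) and Selenoh (0.687). Within the family, Lrrc8a and Lrrc8d were the closest pair at 0.288, and Lrrc8a and Lrrc8c the farthest at 1.79. Many other genes were closer still: Lrrc8d ranked 816 by likeness to Lrrc8a, and Lrrc8a ranked 476 by likeness to Lrrc8d. The neighbours Lrrc8b and Lrrc8c differed by 1.22 and Lrrc8c and Lrrc8d by 1.78. Low counts add noise to the distances of Lrrc8c and Lrrc8e.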

How the data were processed

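Primary myoblast and myotube RNA was measured by poly(A)-selected sequencing in 19 libraries. The submitters' processing notes name bcl2fastq 2.20, fastp 0.20.0, kallisto 0.46.1, edgeR 3.36 and GRCm38.p6, without their roles. The authors deposited, per the file headers, an estimated count, a TPM value, a length and an effective length for each of 121843 transcripts. Of these, 121018 matched GENCODE M21 and were summed over 35598 genes. The 825 others held 0.255% to 0.507% of a library's counts.

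Summed counts were rounded and tested with edgeR 4.0.16 (R 4.3.3): filterByExpr, TMM scaling, 6 group coefficients, quasi-likelihood test, Benjamini-Hochberg adjustment over 15123 genes, called under 0.05. CPM uses TMM-scaled library sizes. Deposited TPM values served for levels and shares only. WT shares were compared by exact permutation tests (SciPy 1.17.1). The fit was tested on simulated data. Replicate pairs differed by more than sampling noise (chi-square per degree of freedom 2.07 to 7.06). Read amplification makes count intervals cover counting error only.

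The members and lists were chosen with earlier results of these data known. Genes named are the 5 subunits, Glud1, the 2 most abundant genes of each list, the nearest tested protein-coding genes beside each subunit, and the 3 most like each subunit with a mean CPM of at least 1. Outside this rule, cell type markers, genes that overlap Lrrc8a or Lrrc8d, and Gm43302 and Abcg3 are named too. Alternatives were other scalings, an effective-length offset, no filter, DESeq2 1.42.0, fits on the groups compared, a replicate block, protein-coding transcripts only, and leaving out each library.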

Additional observations from a re-analysis of the deposited data

Results flagged for a closer look

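Among 30 groups of 4 libraries checked for a sample that stands apart (5 subunits, 2 labels, and CPM, TPM and share in fused myotubes), 3 did, and chance gives about 1 in 20 groups. Lrrc8b in WT fused replicate 4 was at 15.6 CPM, while the other WT fused libraries were at 13.9 to 14.2. Lrrc8e in WT fused replicate 1 was at 0.442 TPM, against 0.181 to 0.221 in the others. Its share of the summed TPM in that library was 3.98%, against 1.77% to 2.03%. There, 0.9 estimated counts on a transcript of 455 nucleotides (ENSMUST00000207770) made up 44.8% of the Lrrc8e TPM, while the CPM of the library, 0.776, was not apart.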

How the results depend on the processing

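The number of subunits called kept within 1.5 times its value under every scaling, filter, tool and left-out library tried, although single calls moved. Leaving out 1 library gave 2 to 4 subunits from WT differentiated to fused myotubes and 2 to 3 in KO-labelled libraries, and 5 of 5 or 4 of 4 in the other comparisons between stages. The share tests could not pass under any setting, so they say nothing of stability. Over all genes, the count called between the labels was 1747, 3810 and 1972 by stage and 587, 2146 and 821 with an effective-length offset. It was 2625 in myoblasts when only these groups were fitted. Leaving out 1 library gave 925 to 1337, 2594 to 3634 and 1384 to 1957, and the low counts in myoblasts came without WT replicate 3 (925), KO-labelled replicate 1 (1144) and KO-labelled replicate 3 (1067); the cause was not tested. Same-numbered libraries did not deviate together (correlations of -0.054 to 0.056 over 41 pairs), and a replicate block moved these counts to 1666, 3667 and 1858 and ended 1 call of a subunit, Lrrc8a from KO-labelled differentiated to fused myotubes (-0.23, edgeR adjusted p = 0.0573). Scaling by library size alone moved the median log2 change of all genes from -0.013 to -0.332 between WT myoblasts and fused myotubes and from -0.035 to -0.353 in KO-labelled libraries, and all 4 subunits with a call at the first step in KO-labelled libraries and all 5 in WT were called lower there too. With the offset, the Lrrc8c difference between the labels in differentiated myotubes was -2.60 and that of Lrrc8e in fused myotubes -0.46. In KO-labelled libraries the Lrrc8c change at the first step ran from -6.74 to -5.78. With protein-coding transcripts alone, Lrrc8a held 41.0% and Lrrc8d 38.2% of KO-labelled fused TPM, which turned their order, and with Gm28035 added Lrrc8a held 28.7% and 35.4% of WT and KO-labelled differentiated TPM. Counts of 2 to 47.1 limit Lrrc8c in myotubes.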
